A study of Rattus norvegicus with 56 samples.

Results

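The young hippocampus was profiled in rats that had received intermittent theta burst stimulation (iTBS) and in rats that had received a sham procedure, and the comparison of these groups is described here. The samples were chosen by their titles, Y_iTBS_HIPP 1 to 4 and Y_Sham_HIPP 1 to 4, taking the first array of each animal, which gave 8 of the 56 arrays in the series. Both groups were male Long-Evans rats 6 to 7 months old with a cognitive status of unimpaired per the labels, and tissue was collected 48 h after the procedure. iTBS delivers magnetic pulses to the brain in bursts, grouped into short trains with pauses between them, here through a figure-eight coil held over the head and aimed at the fibers of the corpus callosum, while in sham rats the coil was held at a distance from the head. Per the study's methods the rats were lightly anesthetized with isoflurane and sedated with dexmedetomidine, which was reversed with Antisedan, so that both groups share the anesthesia and its reversal. The parietal cortex of the same rats was hybridized separately, and 16 aged rats were treated in the same way. These were 4 AU_Sham, 5 AU_iTBS, 4 AI_Sham and 3 AI_iTBS animals, 26 to 27 months old and classed by the labels as aged-unimpaired (AU) or aged-impaired (AI).

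The hippocampus is built from excitatory pyramidal neurons of the CA fields and granule neurons of the dentate gyrus, with inhibitory interneurons, glia and vessels among them, and the choroid plexus of the ventricle lies against it. Neuronal firing switches on immediate early genes such as Fos and Arc within minutes, and lasting plasticity involves glutamate and GABA receptors, the postsynaptic density and the vesicle release machinery. Microglia and other brain cells also keep a low level of interferon-induced and complement transcripts, which code for antiviral effectors and for a protein cascade that tags cells and synapses for removal.

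In the stimulated group no transcript differed from sham after adjustment for multiple testing. Below that threshold the groups of transcripts that sat lower after iTBS were interferon-induced genes (25 of 29 tested members lower), Toll-like receptors and their adaptors (9 of 11) and choroid plexus markers (18 of 18), beside 7601 of all 13358 named genes. Of the complement genes 15 of 25 were lower, with C1s and C2 apart between the groups. Synaptic vesicle genes (32 of 39) and GABA receptor subunits (12 of 16) sat higher, though only 2.56% of the vesicle genes had an unadjusted limma p under 0.05, against 5.38% of all named genes. Of the glutamate receptor subunits 14 of 24 were higher, Grin3a, Grm4, Grm8 and Gria4 among them, while Grik4 was lower. Within array slide 7, where Y_iTBS 1 is the only stimulated rat, the vesicle and Toll-like medians were -0.1 and 0.05, opposite in sign. There the interferon median was -0.03, with 17 of 29 lower, and the choroid plexus median was -0.67. Over all arrays, neocortex markers were higher for 8 of 8 and hippocampal field markers lower for 15 of 20. Immediate early genes lay on both sides, with 14 of 32 higher. The lists were chosen with earlier results of these data known, so these counts describe the samples and are not tests.

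Each array holds the RNA of 1 animal. Between 63.1% and 67.4% of probes were well above background on the 8 arrays. The arrays were not spread evenly over the slides of the platform. Y_Sham 1, Y_Sham 2 and Y_iTBS 1 were on slide 7, scanned on the third scan day, and Y_Sham 3, Y_Sham 4, Y_iTBS 2, Y_iTBS 3 and Y_iTBS 4 were on slide 1, scanned on the first. The first principal component of the 8 arrays placed the slide 7 arrays together at -41.8, -40 and -40.5 and the others at -13.4, 0.6, 82.8, 21.7 and 30.5. Y_iTBS 2 had the highest of these scores and stood furthest from the rest, with a median correlation to the other 7 arrays of 0.977 across probes, against 0.981 to 0.987 for the others. Y_Sham 3 was hybridized 3 times, and its arrays correlated at 0.987 to 0.992 across probes. Since Y_iTBS 1 is the only stimulated rat on slide 7, a value within slide 7 sets 1 animal against 2, and values within a slide are given below for some genes and lists. The tissue label was checked with genes of the hippocampal fields. The dentate gyrus gene C1ql2 had levels of 4.58 to 5.71 and the CA1 gene Wfs1 of 4.37 to 5.53, on the normalized log2 signal scale on which 0 is the mean of an array, and both were well above background on all 8 arrays.

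The comparison of iTBS with sham was made on 32417 probes. In limma, which pooled the spread over all hippocampus arrays of the series, 0 probes had a Benjamini-Hochberg adjusted p under 0.05, and the smallest adjusted p was 0.871. At an unadjusted limma p under 0.05 there were 1647 probes, 644 higher and 1003 lower after iTBS, or 1.99% and 3.09% of those tested. Scaling each array on its 75th percentile instead gave 902 higher and 743 lower, so the balance of directions depends on the normalization. The median standard error (SE) of a difference was 0.183, and the median difference over all probes was -0.02. All 4 stimulated rats lay above all 4 sham rats for 476 probes (1.47%) and below them for 616 (1.90%). Of 13358 named genes, taken with 1 probe each, 286 were higher and 432 lower at an unadjusted limma p under 0.05. In the text "higher" and "lower" therefore describe measured values, and none of them passed the adjusted threshold. Genes outside the naming rule given with the methods were picked after their values were seen.

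**Figure D1:**
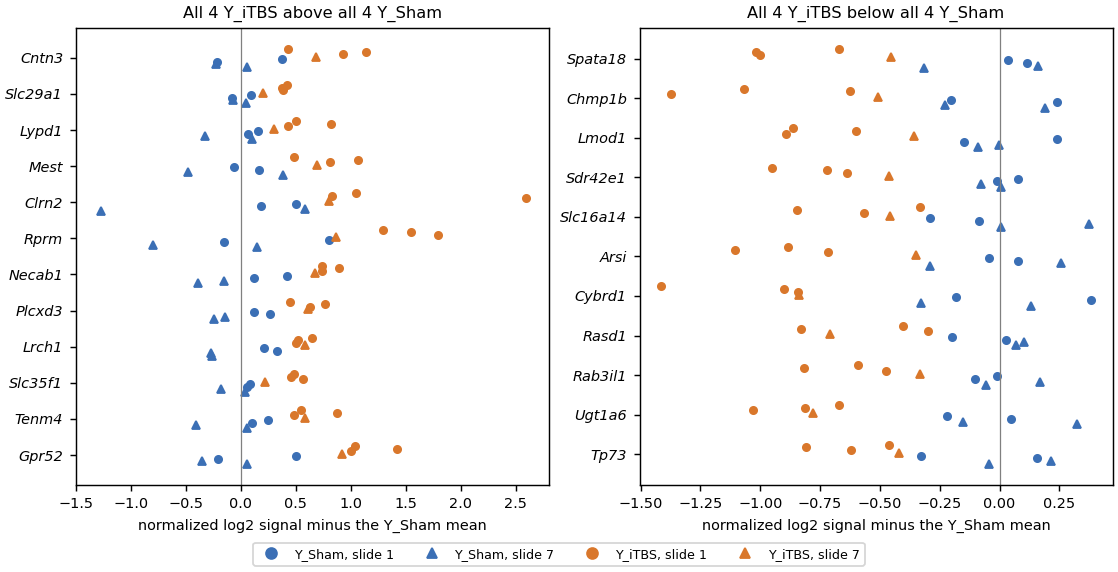
Normalized log2 signal of genes of smallest unadjusted p, 12 higher and 11 lower, on each young hippocampus array (x axis, as the difference from the gene's sham mean in log2 units; 1 row a gene), with color for the group and symbol shape for the slide. For every gene plotted, all 4 iTBS points lie on one side of all 4 sham points, since the genes were chosen so; the differences of group means reach 1.37 for Rprm and -1.0 for Cybrd1.

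Among named genes that were well above background on all 8 arrays and whose groups did not overlap, 191 were higher and 285 lower after iTBS, and the 12 of smallest p in each direction were ranked, of which 12 higher and 11 lower are described. Cntn3, which codes for the neuronal cell adhesion molecule contactin 3 (NM_019329), had normalized log2 signals of 3.01, 2.73, 2.73 and 3.33 in Y_Sham 1 to 4 and 3.63, 3.87, 4.09 and 3.38 in Y_iTBS 1 to 4. Its mean was 2.95 ± 0.28 in sham and 3.74 ± 0.3 in stimulated rats (SD), a difference of 0.8 (SE 0.18, limma p 0.000226, adjusted p 0.871). Every stimulated rat was above every sham rat. A second Cntn3 probe gave 0.77, and the difference was 0.75 within slide 1 and 0.77 within slide 7. Rprm, whose product reprimo is linked to cell cycle arrest and which marks deep layer neurons in the forebrain (NM_001044276), had 2.84, 1.89, 2.54 and 3.49 in Y_Sham 1 to 4 and 3.55, 4.48, 4.24 and 3.98 in Y_iTBS 1 to 4. It was higher by 1.37 (SE 0.38), with 1.21 on a second, dim probe, and by 1.22 and 1.19 within slides 1 and 7. Every stimulated rat exceeded the highest sham rat, although Y_iTBS 1 was close to Y_Sham 4.

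Several of the other genes on the higher side code for proteins of the neuronal surface. Gpr52, an orphan receptor coupled to cyclic AMP, had 0.91, 0.49, 0.64 and 1.35 in Y_Sham 1 to 4 and 1.77, 1.85, 2.27 and 1.89 in Y_iTBS 1 to 4 (difference 1.09, SE 0.33). Tenm4, a teneurin adhesion protein, had 6.43, 5.96, 6.47 and 6.62 in Y_Sham 1 to 4 and 6.95, 6.86, 7.24 and 6.92 in Y_iTBS 1 to 4 (difference 0.62). Lypd1, a modulator of nicotinic receptors, was higher by 0.51, with sham values of 5.09 to 5.57 and stimulated values of 5.72 to 6.23. Since these 3 genes were chosen for groups that did not overlap, the stimulated rats were above sham on both slides by that choice. Slc29a1, the equilibrative nucleoside transporter that carries adenosine, had 3.25, 3.13, 3.13 and 3.3 in sham and 3.4, 3.59, 3.58 and 3.62 in stimulated rats, a difference of 0.34 (SE 0.08). The imprinted gene Mest was higher by 0.76, the calcium-binding protein gene Necab1 by 0.76, Plcxd3 by 0.61 and the transporter-like gene Slc35f1 by 0.43. Clrn2, at 1.32, rested in part on Y_iTBS 2, whose value of 1.36 stood above -0.44, -0.41 and -0.19 in the other stimulated rats. The Clrn2 difference was 0.89 without that rat, also 0.89 without Y_Sham 1, and 0.71 with normexp background correction. For Lrch1, at 0.56, other probes of the gene gave -0.04 and -0.05, so its probes did not move together.

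On the lower side, Spata18, a regulator of mitochondrial quality, had -1.14, -0.66, -0.71 and -0.79 in Y_Sham 1 to 4 and -1.28, -1.82, -1.84 and -1.49 in Y_iTBS 1 to 4. The difference was -0.79 (SE 0.16, limma p 0.000101, adjusted p 0.871), and a second probe gave -0.58. With normexp background correction the difference was -0.31. The slide 7 animals were closer together here, with -0.38 within slide 7 against -0.97 within slide 1. Cybrd1, an iron-regulated ferric reductase, had 2.69, 2.23, 2.95 and 2.38 in Y_Sham 1 to 4 and 1.72, 1.72, 1.66 and 1.15 in Y_iTBS 1 to 4, a difference of -1.0, and -1.21 on a second probe. Its difference was -1.15 within slide 1 and -0.74 within slide 7, and the groups did not overlap.

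Rasd1, a small GTPase induced by dexamethasone, had 1.76, 1.8, 1.73 and 1.5 in sham and 0.99, 1.4, 0.87 and 1.29 in stimulated rats, a difference of -0.56, with -0.57 on a second probe. Lmod1, an actin-nucleating protein of smooth muscle, had 1.44, 1.52, 1.38 and 1.77 in sham and 1.17, 0.63, 0.92 and 0.66 in stimulated rats and differed by -0.68. Sdr42e1, of the short-chain dehydrogenase family, had 2.48, 2.39, 2.46 and 2.55 in sham and 2.01, 1.83, 1.75 and 1.52 in stimulated rats, a difference of -0.69. Ugt1a6, a glucuronosyltransferase, differed by -0.82, or -0.28 with normexp background correction, and a second probe gave -0.07. The remaining genes of the rule included Tp73, a transcription factor of the p53 family, at -0.58. Rab3il1, an exchange factor for Rab proteins, was at -0.55. The sulfatase gene Arsi was at -0.76, or -0.34 with normexp background correction. The monocarboxylate transporter family gene Slc16a14 was at -0.55, where another probe gave 0.09. For Chmp1b, of the membrane-remodeling ESCRT machinery, the probe chosen by the rule gave -0.89 and a second probe 0.47 (SE 0.25), in the other direction.

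A few transcripts were near background in one group. Timd2, a receptor that takes up ferritin, was well above background in 1 of 4 sham and 4 of 4 stimulated rats, with -3.81, -3.66, -1.28 and -3.79 in Y_Sham 1 to 4 and -1.39, -1.06, -0.86 and -1.05 in Y_iTBS 1 to 4. Y_Sham 3 stood among the stimulated values, and the fitted difference was 2.04 (limma p 0.000376, adjusted p 0.871), or 1.4 when dim spots are raised to the background limit of their array and 0.57 with normexp background correction. Without Y_Sham 3 the difference was 2.66 with an adjusted p of 0.0238 in limma, the only named gene called in that setting. Iyd, a deiodinase gene that marks CA3 in the list used here, was at 0.52 and 0.51 in Y_Sham 3 and Y_Sham 4 and between -5.04 and -4.76 on the other 6 arrays, so its difference of -2.66 rests on 2 animals. Spata3, Zg16b, Trpm1 and Rnase13 were above background on 4 of 4 sham and 0 of 4 stimulated arrays. On the main scale they were lower after iTBS by at least 1.53, 2.9, 1.32 and 1.23-fold. These bounds set the dim spots at the lowest signal that was well above background on their array. For Zg16b the bound holds for this probe only. A second Zg16b probe, brighter at a mean level of 2.54 against -2.41 over the hippocampus arrays, gave a difference of 0.19. With normexp background correction the log2 differences were -0.19, -0.57, -0.12 and -0.28, each smaller than its bound. The Trpm1 groups overlapped, with -2.58 in Y_iTBS 2 and -2.72 in Y_Sham 3.

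**Figure D2:**
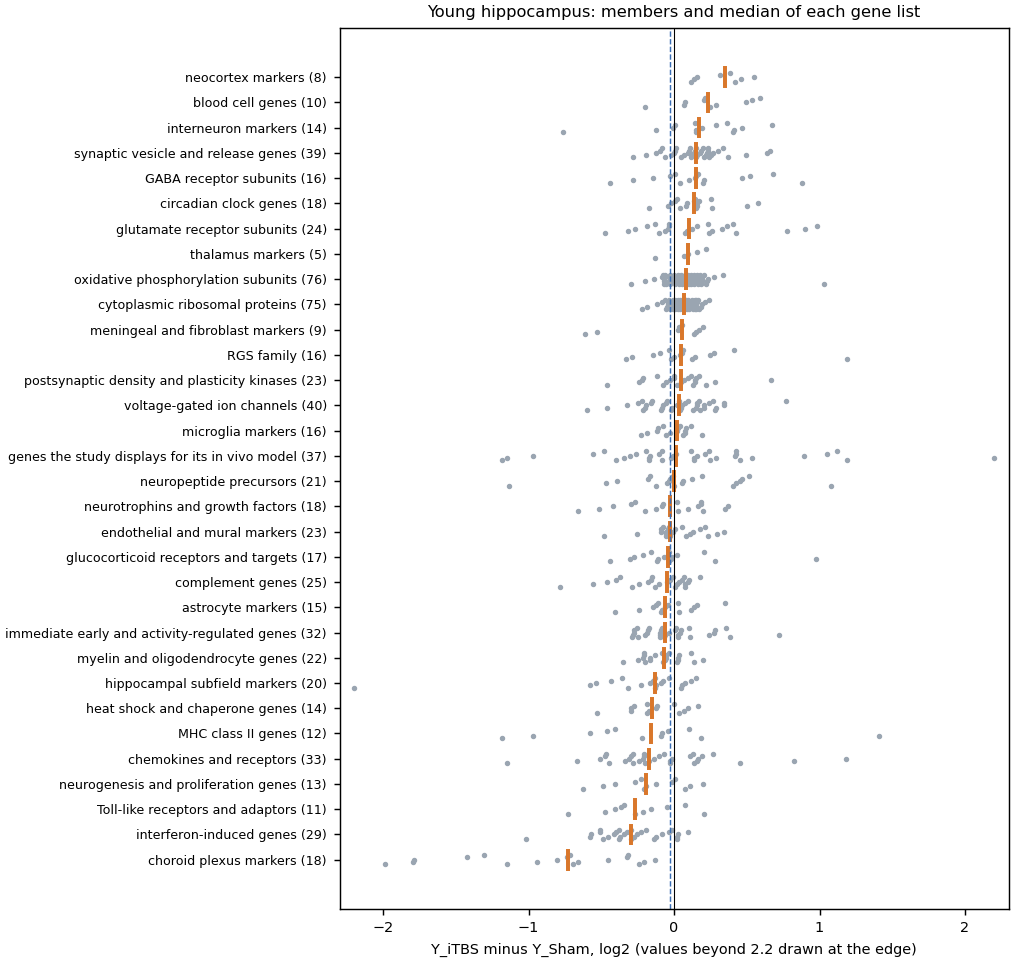
Difference iTBS minus sham (x axis, log2 units) of every tested member of the gene lists (rows), with each point a gene and the bar the list's median; the dashed line is the median over all genes or probes tested. Interferon-induced genes and choroid plexus markers have most points left of zero, while synaptic vesicle genes and neocortex markers have most to the right; values of Iyd and Gpat2 beyond ±2.2 are drawn at the edge.

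The interferon-induced genes code for proteins that sense viral RNA, block viral replication and process antigen, and are switched on through transcription factors that include Stat2 and Irf9. Of 35 genes in the list 29 were tested, and 25 were lower and 4 higher after iTBS, with a median of -0.3 against -0.03 over all 13358 named genes. The 4 members at an unadjusted limma p under 0.05 were all lower, Parp9, Ifi44, Oasl2 and Dhx58, and no member was higher at that level, beside the 3.09% and 1.99% of all probes given above. Oasl2, Psmb9 and Isg15 had all 4 stimulated rats below all sham rats, beside 262 of all 13358 named genes. None passed the adjusted threshold.

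The promoter sequences of 5 of these genes are shown because many genes of this class carry an element built from repeated GAAA in this region. They are the 250 bases before the transcription start of the RefSeq annotation (rat assembly GRCr8), written 5′ to 3′ on the strand of the gene. Capitals mark GAAANNGAAA, or TTTCNNTTTC when it lies on the other strand. The genes are Ifi44 (chr2:243303841-243304090, minus strand), Oasl2 (chr12:47383186-47383435, minus strand), Oas1a (chr12:41330216-41330465, plus strand), Bst2 (chr16:18254968-18255217, minus strand) and Psmb9 (chr20:4668750-4668999, plus strand).
Ifi44: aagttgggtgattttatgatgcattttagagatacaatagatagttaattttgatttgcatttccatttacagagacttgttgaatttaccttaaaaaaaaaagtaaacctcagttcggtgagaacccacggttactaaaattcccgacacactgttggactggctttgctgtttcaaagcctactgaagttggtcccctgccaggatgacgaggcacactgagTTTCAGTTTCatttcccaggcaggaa
Oasl2: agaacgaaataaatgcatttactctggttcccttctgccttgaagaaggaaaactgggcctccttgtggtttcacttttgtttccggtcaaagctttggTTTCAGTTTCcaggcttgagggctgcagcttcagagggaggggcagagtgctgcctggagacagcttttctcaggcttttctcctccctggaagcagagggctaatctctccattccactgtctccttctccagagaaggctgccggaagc
Oas1a: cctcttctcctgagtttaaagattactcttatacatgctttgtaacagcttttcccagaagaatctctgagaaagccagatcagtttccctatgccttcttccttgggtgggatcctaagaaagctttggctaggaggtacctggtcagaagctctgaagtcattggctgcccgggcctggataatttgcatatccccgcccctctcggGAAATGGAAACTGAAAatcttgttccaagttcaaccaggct
Bst2: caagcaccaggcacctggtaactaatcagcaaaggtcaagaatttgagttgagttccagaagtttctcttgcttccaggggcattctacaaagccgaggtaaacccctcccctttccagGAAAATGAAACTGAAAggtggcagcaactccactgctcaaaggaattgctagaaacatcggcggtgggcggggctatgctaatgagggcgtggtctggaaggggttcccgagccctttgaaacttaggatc
Psmb9: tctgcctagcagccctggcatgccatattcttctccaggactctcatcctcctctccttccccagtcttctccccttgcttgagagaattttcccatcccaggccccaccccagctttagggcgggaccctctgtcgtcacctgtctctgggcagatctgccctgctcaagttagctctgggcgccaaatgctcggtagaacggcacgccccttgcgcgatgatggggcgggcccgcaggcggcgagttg
In Ifi44 the match ended 17 bases before the start and in Oasl2 142, Oas1a and Bst2 each held a pair of overlapping matches, and Psmb9 held none. Of the 29 tested members 22 had a promoter in the table, and 13 of them (59.1%) held a match on either strand, against 1140 of 33469 promoters in all (3.41%). Among the 19 members with a promoter that were lower after iTBS, 12 (63.2%) held one. A match describes the letters of this window and is not a measured binding site.

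**Figure D3:**
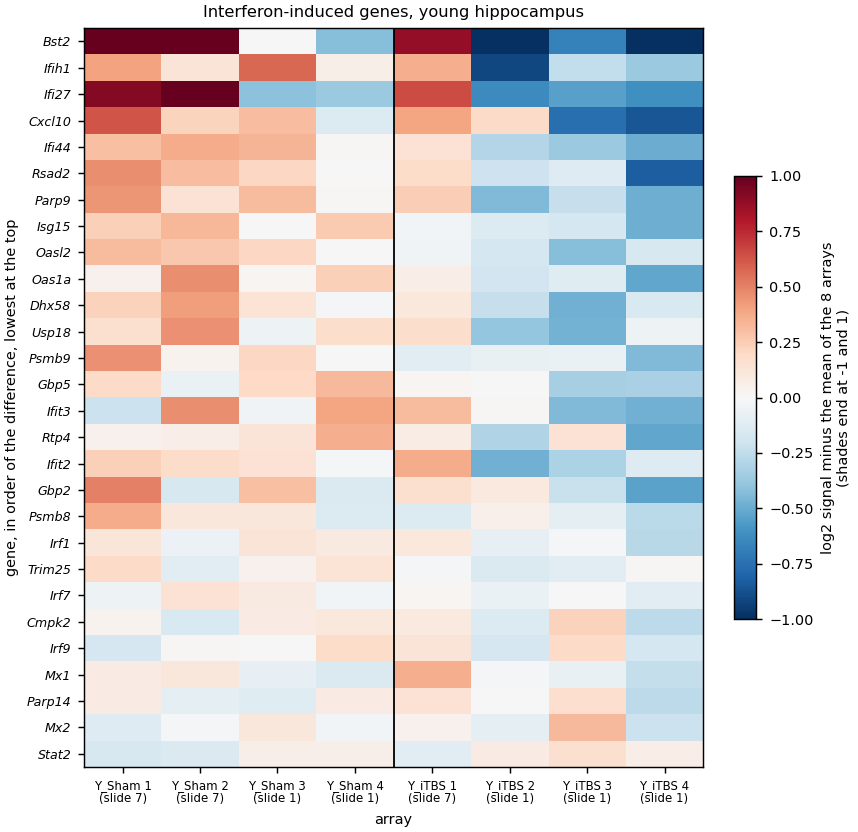
Normalized log2 signal of tested interferon-induced genes (rows) on the 8 young hippocampus arrays (columns, sham then iTBS), as the difference from the gene's mean over the 8 arrays, with a color scale that ends at -1 and 1 in log2 units. Y_iTBS 2, 3 and 4 are low for most genes, Y_iTBS 1 is close to the sham arrays, and Bst2 and Ifi27 are high on the slide 7 arrays of both groups.

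Ifi44 (NM_001107729), a cytoplasmic interferon-induced protein, had 2.73, 2.8, 2.77 and 2.44 in Y_Sham 1 to 4 and 2.58, 2.14, 2.06 and 1.93 in Y_iTBS 1 to 4. Y_iTBS 1 lay inside the sham range and the other 3 stimulated rats below it. The difference was -0.51 (SE 0.2, limma p 0.0192, adjusted p 0.871), with -0.46 on a second probe. Parp9, a regulator of interferon signaling, had 0.17, -0.13, 0.05 and -0.26 in Y_Sham 1 to 4 and -0.03, -0.71, -0.5 and -0.76 in Y_iTBS 1 to 4. It differed by -0.46 (SE 0.17), and here too Y_iTBS 1 was among the sham values, with -0.05 within slide 7. Oasl2, of the 2′-5′ oligoadenylate synthetase family, had 1.33, 1.29, 1.23 and 1.02 in Y_Sham 1 to 4 and 0.99, 0.84, 0.59 and 0.86 in Y_iTBS 1 to 4, and its groups did not overlap (difference -0.4, SE 0.16). The ubiquitin-like modifier Isg15 had 1.47, 1.56, 1.23 and 1.5 in Y_Sham 1 to 4 and 1.21, 1.1, 1.06 and 0.75 in Y_iTBS 1 to 4 and the immunoproteasome subunit Psmb9 3.23, 2.81, 2.99 and 2.78 in Y_Sham 1 to 4 and 2.67, 2.71, 2.71 and 2.34 in Y_iTBS 1 to 4. Their differences of -0.41 and -0.35 were of the same order as those of the RNA helicase Dhx58 (-0.38) and of Oas1a (-0.38). Oas1a belongs to a family of close copies, and signal shared between copies cannot be separated on this array.

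Among transcription factors of the pathway, Stat2, Irf9, Irf7 and Irf1 had overlapping groups and differed by 0.1, -0.01, -0.08 and -0.14. The dynamin-like antiviral proteins Mx1 and Mx2 differed by 0.02 and 0.03, and neither was lower. Bst2 (tetherin) had 2.98, 3.02, 1.76 and 1.34 in Y_Sham 1 to 4 and 2.64, 0.62, 1.09 and 0.66 in Y_iTBS 1 to 4, and Ifi27 5.65, 5.74, 4.32 and 4.36 in Y_Sham 1 to 4 and 5.39, 4.09, 4.19 and 4.12 in Y_iTBS 1 to 4. For both genes the 3 arrays of slide 7 were the highest, 2 of them sham and 1 stimulated, and within slide 1 stimulated rats were still below sham.

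Averaged over the 29 members, the level was 2.27, 2.22, 2.12 and 2.05 in Y_Sham 1 to 4 and 2.19, 1.81, 1.85 and 1.65 in Y_iTBS 1 to 4. In all, 3 of the stimulated rats were below every sham rat and Y_iTBS 1 was not. By gene, Y_iTBS 1 was below all sham rats for 4 members, and Y_iTBS 2, 3 and 4 for 19, 17 and 26. The list median was -0.35 within slide 1 (27 lower) and -0.03 within slide 7 (17 lower), where Y_iTBS 1 is the only stimulated rat. It was -0.33 without Y_iTBS 2, the array that stood apart, and -0.38 without Y_iTBS 1. Microglia markers had 7 of 16 lower and a median of 0.02, and endothelial markers had a median of -0.03. The part of cell composition was not tested, and in a bulk sample fewer cells of a type and less RNA per cell cannot be told apart.

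Complement proteins of the classical pathway start a cascade that marks membranes for clearance. C1s, the protease of the initiating complex, had 1.94, 1.97, 2.04 and 1.42 in Y_Sham 1 to 4 and 1.11, 1.31, 1.41 and 1.31 in Y_iTBS 1 to 4. All stimulated rats were below all sham rats, although Y_Sham 4 and Y_iTBS 3 were almost level, and the difference was -0.56 (SE 0.2, limma p 0.0115, adjusted p 0.871), with -0.37 on a second probe. C2, which the protease cleaves, had 2.16, 2.0, 2.03 and 1.87 in Y_Sham 1 to 4 and 1.56, 1.77, 1.58 and 1.53 in Y_iTBS 1 to 4, again without overlap, and differed by -0.4 (SE 0.2). The partner protease C1r and the inhibitor Serping1 differed by -0.29 and -0.46, with overlapping groups. Of the 25 complement genes tested 15 were lower and 10 higher, with a median of -0.05. At an unadjusted limma p under 0.05 there was 1 member (4%), against 5.38% of all named genes, and 2 were below sham without overlap, against 262 of 13358.

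MHC class II molecules present peptides to T cells, and in brain come from microglia and macrophages. RT1-Da had 1.96, 0.14, 0.24 and -0.23 in Y_Sham 1 to 4 and 0.01, -0.35, -0.76 and -1.51 in Y_iTBS 1 to 4 and the invariant chain Cd74 4.12, 2.08, 2.25 and 1.79 in Y_Sham 1 to 4 and 1.86, 2.04, 1.5 and 0.96 in Y_iTBS 1 to 4. Both were highest in Y_Sham 1, and the groups overlapped. The differences of -1.18 (SE 0.59) and -0.97 (SE 0.53) became -0.7 and -0.45 without Y_Sham 1. RT1-Bb was at 8.23 in Y_iTBS 2 and between -1.38 and 0.71 on the other 7 arrays, which gave it a difference of 1.41 (SE 1.37). RT1 genes have close copies, which these probes may not separate. In all 9 of 12 tested members were lower, with a median of -0.16 and none at an unadjusted limma p under 0.05.

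Toll-like receptors recognize microbial molecules, with Cd14 and Ly96 as partners of Tlr4. Ly96 had 0.57, 0.62, 0.28 and 0.59 in Y_Sham 1 to 4 and 0.74, -0.12, -0.05 and 0.03 in Y_iTBS 1 to 4, so that Y_iTBS 1 was the highest of all arrays and the other stimulated rats the lowest. It differed by -0.37 (SE 0.17, limma p 0.0467), with -0.38 on a second probe. Cd14 had 0.71, 0.65, 1.06 and 0.69 in sham and 0.63, 0.56, 0.33 and 0.52 in stimulated rats and did not overlap, with a difference of -0.27. Tlr7 and Tlr4 differed by -0.73 and -0.41, and Tlr3 by -0.34 with overlap. The Tlr3 value was -0.04 without Y_iTBS 4 and 0.27 within slide 7. Of 11 tested members 9 were lower (median -0.27). The median was -0.09 without Y_iTBS 4, -0.14 with normexp background correction and 0.05 within slide 7. Among chemokines and their receptors 23 of 33 were lower (median -0.18). That median was -0.07 without Y_Sham 1, -0.05 with scaling on the 75th percentile and -0.04 within slide 1. Cxcr1 differed by -0.47, or -0.08 within slide 7, and Cxcr4, the receptor of Cxcl12, by -0.45.

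The release machinery docks and fuses synaptic vesicles. Of 39 genes tested 32 were higher after iTBS, with a median of 0.15. At an unadjusted limma p under 0.05 there was 1 member (2.56%), against 5.38% of all named genes, and 2 were above sham without overlap, against 162 of 13358. Stx1a, the syntaxin of the fusion complex, had 7.34, 7.27, 7.75 and 7.94 in Y_Sham 1 to 4 and 7.36, 8.66, 8.51 and 8.32 in Y_iTBS 1 to 4. Y_iTBS 1 was within the sham range and the other 3 above it (difference 0.64, SE 0.31, limma p 0.0519), and the difference within slide 7 was 0.06. The calcium sensor Syt1 had 4.65, 4.64, 4.95 and 4.87 in sham and 4.8, 5.4, 5.34 and 5.06 in stimulated rats and differed by 0.37. Bsn, the scaffold bassoon of the active zone, and Syt2 had all stimulated rats above all sham rats, with differences of 0.23 and 0.66. Rims2 differed by 0.34, or 0.14 without Y_iTBS 2, which read 5.34 with the other stimulated rats at 4.52 to 4.58 against 4.29 to 4.53 in sham, and a second probe gave -0.15. The vesicular transporters for glutamate and GABA differed little, with Slc17a7 at -0.06 and Slc32a1 at -0.02. The list mean was 4.4 to 4.5 in sham rats, 4.41 in Y_iTBS 1 and 4.63 to 4.71 in the other stimulated rats. Within slide 7 the median was -0.1, opposite in sign, and within slide 1 it was 0.18.

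Among glutamate receptor subunits 14 of 24 were higher and 10 lower (median 0.11, or 0.05 without Y_Sham 3), and 5 had an unadjusted limma p under 0.05 (20.8%, against 5.38% of all named genes), 4 of them higher. Grin3a, an NMDA receptor subunit that lowers calcium permeability, had 0.42, 0.38, 0.94 and 1.57 in Y_Sham 1 to 4 and 1.43, 2.27, 1.93 and 1.61 in Y_iTBS 1 to 4. It was higher by 0.98 (SE 0.31, limma p 0.0044, adjusted p 0.871), with Y_Sham 4 above Y_iTBS 1. The metabotropic receptor Grm4, which dampens transmitter release, had 4.42, 3.86, 4.38 and 4.74 in Y_Sham 1 to 4 and 4.65, 5.06, 5.35 and 5.43 in Y_iTBS 1 to 4, a difference of 0.78. Its relative Grm8 had 1.85, 0.19, 1.69 and 2.08 in Y_Sham 1 to 4 and 2.01, 2.41, 2.78 and 2.2 in Y_iTBS 1 to 4, a difference of 0.9 with Y_Sham 2 far below the other sham rats. The AMPA receptor subunit Gria4 had 5.5, 5.67, 5.35 and 5.82 in Y_Sham 1 to 4 and 6.05, 5.95, 6.02 and 5.95 in Y_iTBS 1 to 4, did not overlap, and was higher by 0.41. The kainate receptor subunit Grik4, which is enriched in CA3, was the member at this level on the lower side, with 2.91, 3.06, 2.97 and 2.78 in Y_Sham 1 to 4 and 2.77, 2.44, 2.45 and 2.8 in Y_iTBS 1 to 4 and a difference of -0.31. Grin2d, an NMDA receptor subunit of interneurons, had 6.86 in Y_iTBS 1 and 7.93 to 8.0 in the other stimulated rats, against 7.11 to 7.59 in sham, so that its difference was 0.43 over all arrays and -0.28 within slide 7.

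GABA receptor subunits were higher for 12 of 16 (median 0.15). Gabrg3 had -0.65, -1.15, -0.94 and -0.54 in sham and -0.28, -0.06, -0.11 and -0.74 in stimulated rats and was higher by 0.52, while Gabra5, the subunit of tonic inhibition in the hippocampus, had 3.39, 3.47, 3.21 and 3.05 in sham and 3.15, 2.44, 2.65 and 3.11 in stimulated rats and differed by -0.44 (SE 0.19). Interneuron markers were higher for 11 of 14 (median 0.17). Nos1, the neuronal nitric oxide synthase, had -1.6, -2.41, -1.92 and -1.9 in Y_Sham 1 to 4. In Y_iTBS 1 to 4 it had -1.59, -1.04, -1.45 and -1.06. The groups did not overlap, although Y_Sham 1 and Y_iTBS 1 were almost level. The Nos1 difference was 0.67 (SE 0.26), or 0.31 with normexp background correction. Gad1, which makes GABA, had 7.21, 6.91, 7.4 and 7.44 in sham and 7.37, 7.76, 7.77 and 7.51 in stimulated rats and differed by 0.37, with 0.43 on a second probe. Sst and Pvalb, which mark the major interneuron classes, differed by 0.47 and 0.29 with overlapping groups.

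The postsynaptic density and its kinases lay on both sides, with 13 of 23 higher (median 0.04, and -0.25 within slide 7). Shank2, a scaffold under glutamate receptors, had 6.41, 6.5, 6.42 and 6.51 in Y_Sham 1 to 4 and 6.58, 6.76, 6.9 and 6.71 in Y_iTBS 1 to 4, without overlap and with a difference of 0.28 (SE 0.09). Camk2d, a calcium and calmodulin dependent kinase, had -0.28, -0.29, -0.25 and -0.09 in Y_Sham 1 to 4 and 0.14, 0.38, 0.53 and 0.72 in Y_iTBS 1 to 4, also without overlap, and differed by 0.67 (SE 0.23). Of 40 voltage-gated and related ion channels 23 were higher (median 0.04). The sodium-activated potassium channel Kcnt1 was higher on all 3 of its probes, by 0.77, 0.83 and 0.64, from 4.56, 3.83, 4.55 and 5.05 in sham and 4.98, 5.48, 5.58 and 5.03 in stimulated rats, and the calcium channel subunit Cacnb4 by 0.35. Among 16 RGS genes, which shut off G protein signaling, Rgs4 had 5.63, 4.12, 5.12 and 6.26 in Y_Sham 1 to 4 and 5.8, 6.47, 6.99 and 6.63 in Y_iTBS 1 to 4. The sham rats were widely spread (SD 0.9), and the groups overlapped, with a difference of 1.19 (SE 0.56) and 1.09 on a second probe. Rgs9 was higher by 0.41.

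Immediate early and activity-regulated genes lay on both sides at 48 h. Of 32 tested, 14 were higher and 18 lower, with a median of -0.06, and the list mean was 2.97 to 3.04 in sham and 2.88 to 3.05 in stimulated rats. Fos had 0.38, 0.25, 0.42 and 0.06 in sham and 0.48, 0.01, 0.05 and -0.13 in stimulated rats and Arc, an effector at synapses, 6.49, 6.6, 6.92 and 7.02 in sham and 6.8, 6.64, 6.86 and 6.79 in stimulated rats. The groups overlapped for both, with differences of -0.18 (SE 0.33) and 0.01 (SE 0.22). Egr1, Npas4 and Bdnf differed by -0.1, -0.25 and -0.2. At an unadjusted limma p under 0.05 there were 2 members (6.25%), near the 5.38% of all named genes, and both were higher. They were Vgf, a neuropeptide precursor induced by neurotrophins, with 7.53, 7.5, 7.9 and 7.98 in Y_Sham 1 to 4 and 7.84, 8.08, 8.29 and 8.24 in Y_iTBS 1 to 4 (difference 0.38, SE 0.16), and the kinase Sik1 at 0.72. Of 18 neurotrophins and growth factors 9 were higher, and Ntf3 (neurotrophin 3) differed by -0.66. Neuropeptide precursors were also even, with 11 of 21 higher, and Tac1 (substance P precursor) and Cck (cholecystokinin) higher by 0.51 and 0.4. The Cck difference was -0.08 within slide 7.

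Markers of tissue that borders the hippocampus were examined in the same way and are set beside the lists above. All 18 choroid plexus markers tested were lower after iTBS (median -0.73). The size depends on dim members, since the median was -0.45 for the 11 members above background on all 8 arrays, -0.39 for the 8 of mean z-score above 0 and -0.3 with normexp background correction, with every member lower in each. The list mean was 1.48 in Y_Sham 1 and 0.66, 0.32 and 0.29 in the other sham rats, against 0.28, -0.21, -0.57 and -0.11 in Y_iTBS 1 to 4, so the groups were apart although Y_Sham 4 and Y_iTBS 1 were close. Ttr, which codes for the thyroid hormone carrier transthyretin, had 8.98, 6.97, 7.12 and 7.33 in Y_Sham 1 to 4 and 6.91, 7.02, 4.79 and 7.08 in Y_iTBS 1 to 4, a difference of -1.15 (SE 1.07) with overlap, which was -0.69 without Y_Sham 1 and -0.6 without Y_iTBS 3. Clic6 differed by -1.99, or -1.31 with dim spots raised and -0.49 with normexp background correction, and Otx2, a homeobox factor of the plexus, had 2.67, 1.49, 2.23 and 0.46 in Y_Sham 1 to 4 and 0.35, 0.76, -0.58 and -0.83 in Y_iTBS 1 to 4. Cldn2, a claudin of its tight junctions, was above background on 3 sham and 0 stimulated arrays, lower by at least 1.83-fold on the main scale. With normexp background correction the Cldn2 difference was -0.35 in log2 units, smaller than that bound. Without Y_Sham 1 the list median was -0.53. Kcnj13 has no value on Y_iTBS 1, and Doc2a of the vesicle list has none on Y_Sham 2, so their fits rest on the other arrays.

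Neocortex markers were higher for 8 of 8 (median 0.35), with Fezf2 at 0.42 and list means of 0.87 to 1.25 in sham and 1.19 to 1.55 in stimulated rats. Markers of hippocampal fields were lower for 15 of 20 (median -0.13), among them the CA1 gene Wfs1 (-0.43) and the CA2 gene Amigo2 (-0.36), while the dentate gene Prox1 differed by 0.12. The mean of this list was 3.4 to 3.66 in sham and 3.13 to 3.33 in stimulated rats, without overlap. That separation depends on Iyd, at 0.52 and 0.51 in Y_Sham 3 and Y_Sham 4 and between -5.04 and -4.76 on the others. The neocortex and synaptic lists were both higher and both overlapped between groups, and Rprm is also a gene of cortical neurons. The part of dissection, and of the amount of choroid plexus on each sample, in the differences of neuronal and immune genes was not tested. Astrocyte markers had 9 of 15 lower (median -0.06), myelin and oligodendrocyte genes 15 of 22 (median -0.07) and blood cell genes 1 of 10 (median 0.23). The endothelial list, with 13 of 23 lower, contains Abcg2, an efflux transporter of the blood-brain barrier, which had 3.42, 3.34, 3.56 and 3.5 in Y_Sham 1 to 4 and 3.08, 3.1, 2.63 and 3.07 in Y_iTBS 1 to 4. Its groups did not overlap, with a difference of -0.48 (SE 0.21, limma p 0.0285).

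**Figure D4:**
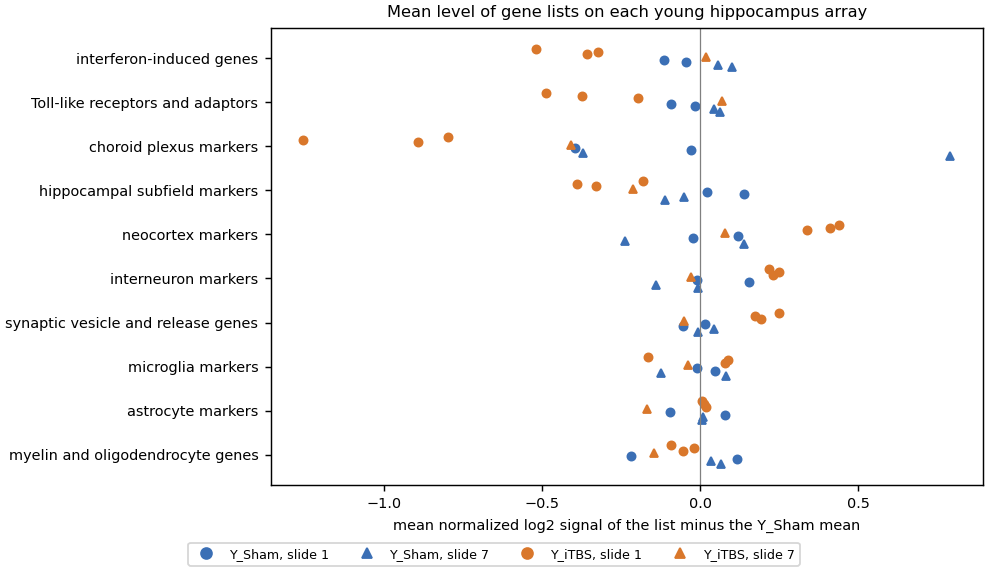
Mean normalized log2 signal of selected gene lists on each young hippocampus array (x axis, as the difference from the mean of the sham arrays in log2 units), with color for the group and symbol shape for the slide. The choroid plexus mean of Y_Sham 1 stands above the other arrays, and for interferon-induced and synaptic vesicle genes Y_iTBS 1 lies with the sham arrays while Y_iTBS 2, 3 and 4 lie apart.

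The parietal cortex of the same 8 rats gives a second measurement of each animal. There, too, 0 of 32417 probes had an adjusted p under 0.05 in limma (smallest 0.507), and 968 had an unadjusted p under 0.05. Tested directly on the difference between regions within each animal, 472 probes had a more positive iTBS difference in hippocampus and 457 a more positive one in cortex at an unadjusted limma p under 0.05 (1.46% and 1.41%), and 0 after adjustment. The genes below were chosen on the hippocampus values, which this test shares. Rprm differed by 1.37 in hippocampus and 0.04 in cortex, Clrn2 by 1.32 and -0.32, and Gpr52 by 1.09 and 0.16, with unadjusted limma p values for the difference between regions of 0.00371, 0.0104 and 0.0261 and adjusted p of 1. Ntf3 lay on opposite sides, at -0.66 and 0.69 (difference between regions -1.36, limma p 0.00201, adjusted p 1).

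Other genes lay on the same side in both regions. Spata18 was at -0.79 in hippocampus and -1.08 in cortex, Chmp1b at -0.89 and -0.79, Cybrd1 at -1.0 and -0.7, and Timd2 at 2.04 and 2.56. The regional differences of these genes were not past an unadjusted limma p of 0.05, which does not show that the regions are alike. Interferon-induced genes were lower for 23 of 29 in cortex (median -0.21), and the direct difference between regions was more negative in hippocampus for 27 of 29 (median -0.11), beside 6882 of 13358 named genes. Choroid plexus markers were lower in cortex for 11 of 18 (median -0.15). In synaptic vesicle genes 27 of 39 were higher in cortex (median 0.09).

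In aged rats the hippocampus contrasts also had 0 probes at an adjusted p under 0.05 in limma, with 740 at an unadjusted p under 0.05 in AU and 710 in AI rats. The young difference was tested against the mean of both aged differences. At an unadjusted limma p under 0.05, 565 probes (1.74%) were more positive in young and 926 (2.86%) more negative, and 0 passed adjustment (smallest adjusted p 0.757). For interferon-induced genes the median difference was -0.3 in young, 0.24 in AU and 0.21 in AI rats, with 25, 2 and 2 of 29 lower, and the difference between ages was below zero for 28 of 29 (median -0.52). For 12 of them, Ifi44, Oasl2, Dhx58, Oas1a, Isg15, Ifit2, Parp9, Gbp5, Rtp4, Usp18, Rsad2 and Psmb9, it had an unadjusted limma p under 0.05. Ifi44 was at -0.51 in young, 0.44 in AU and 0.22 in AI rats (difference -0.84, SE 0.25, limma p 0.00272, adjusted p 0.757), and Isg15 at -0.41, 0.54 and 0.22. Microglia markers were lower for 1 of 16 in AU (median 0.11) and 3 of 16 in AI rats (median 0.25), and their difference between ages was below zero for 14 of 16 (median -0.13). The part of microglia in the interferon values was not tested. The young values enter both quantities, so the age difference is not separate evidence for the young one. The slides were uneven in aged rats too. AU_Sham arrays were on slides 7 and 1 and AU_iTBS arrays on slides 7, 5 and 2. AI_Sham and AI_iTBS arrays were on slides 7 and 2. The part of slide in the list values by age was not tested.

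The same comparison by age for single genes gave Cntn3 at 0.8 in young and 0.25 and -0.08 in AU and AI rats (difference 0.71, SE 0.22), and Lmod1 at -0.68, 0.07 and 0.16 (difference -0.79, SE 0.2). C1s was at -0.56, 0.19 and 0.19 (difference -0.75, SE 0.25), and RT1-Da at -1.18, 0.64 and 0.75. Slc29a1 was higher in each group, by 0.34, 0.15 and 0.16. Choroid plexus markers were lower for 2 of 18 in AU (median 0.51) and for 16 of 18 in AI rats (median -0.71), so this list too varied between the groups of animals.

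**Figure D5:**
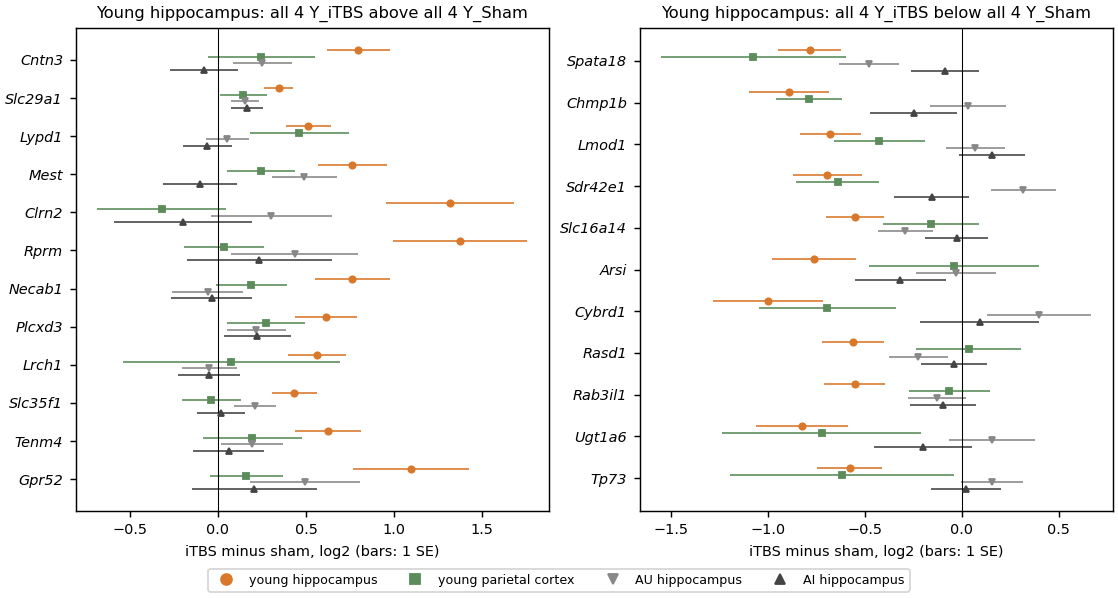
iTBS minus sham difference (x axis, log2 units, with bars of 1 SE) of 12 higher and 11 lower genes of smallest p (rows) in young hippocampus, young parietal cortex, and AU and AI hippocampus. Rprm lies near 0 in young cortex, while Chmp1b is at -0.79 there; the genes were chosen on the young hippocampus values.

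Genes that the study names for the young hippocampus were read one by one, and since the study chose them on these samples their values are not independent evidence. C1s, C2, Abcg2, RT1-Da, Cd74, Tlr3, Grin2d and Ttr are given above. Rgs4, also given above, is marked by the study in aged but not in young hippocampus. S100b, a calcium-binding protein of astrocytes, had 9.51, 9.71, 9.4 and 9.51 in Y_Sham 1 to 4 and 9.03, 10.11, 9.79 and 9.83 in Y_iTBS 1 to 4, a difference of 0.16 (SE 0.18), which was -0.58 within slide 7 and -0.01 with quantile normalization. Sema6c, a semaphorin, differed by -0.02 with overlapping groups, and Hbb-b1, a globin chain, by 0.25. Rxrg, a nuclear receptor for retinoids, had 2.63, 1.51, 2.88 and 3.59 in Y_Sham 1 to 4 and 3.41, 3.1, 3.86 and 3.8 in Y_iTBS 1 to 4 and differed by 0.89 (SE 0.44, limma p 0.0542), or 0.51 without Y_Sham 2. By its z-ratio, the study reports S100b as lower and Sema6c as higher in young hippocampus, unlike the values here. The other genes of this paragraph that it marks in young hippocampus had the study's direction. Of 37 tested genes that the study displays for its in vivo experiment, 19 were higher and 18 lower in the young hippocampus. Their median was 0.01.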

How the data were processed

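RNA of the dorsal hippocampus was labelled with Cy3 and hybridized to SurePrint G3 Rat Gene Expression v2 arrays, 1 color and 1 animal per array. The deposited scanner files hold spot intensity values that, per the file headers, Feature Extraction had background-subtracted and spatially detrended, without normalization between arrays. The authors also deposited a table that gives a z score for each probe and array, made by normalizing each array to its own mean and SD, which served as an alternative.

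Here log2 of the processed signal was z-transformed within each array over probes and returned to log2 units with the average array SD (4.09), so that 0 is the mean of an array. Z-scoring sets all arrays to a common mean and spread, so a shift shared by most transcripts would not be seen. Control spots and outlier spots were left out, spots of a probe were averaged, and probes well above background on at least 3 of the 24 first hippocampus arrays were kept. All 24 arrays in 6 groups were fitted with limma 3.58.1 in R 4.3.3 (18 residual degrees of freedom), with Benjamini-Hochberg adjustment over all probes. The code was tested on simulated data. The number of arrays limits the precision.

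Probes were named through RefSeq accessions (21109 of 45598 probes, 46.3%), and the others are unnamed here. Lists take 1 probe a gene. The members and lists were chosen with earlier results of these data known. The genes named were the 12 of smallest p in each direction among those above background on all 8 arrays and without overlap, the 2 of smallest p in each list, genes above background on all arrays of 1 group and none of the other, and the genes the study names for the young hippocampus with Timd2. Other genes were chosen after their values were seen. Alternatives were other normalizations, background corrections and probe filters, slide or scan day as a block, the replicate number as a block, array weights, an approximation of the study's selection rule and leaving out each array. An array whose title and other labels disagree on the animal was not analysed here. Some genes that the rule or the lists take in are not reported here singly, though they stay in the counts and medians.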

Additional observations from a re-analysis of the deposited data

Results flagged for a closer look

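Of 190 groups of 4 arrays examined, 17 held 1 array far from the other 3, and chance gives about 1 in 20. All values are normalized log2 signals. In Y_iTBS 2, Clrn2 was at 1.36 (the other stimulated rats -0.44 to -0.19) and Rims2 at 5.34 (4.52 to 4.58). In Y_iTBS 4, Cybrd1 was at 1.15 (1.66 to 1.72), Tac1 at 3.94 (4.48 to 4.52) and Sema6c at 1.92 (1.54 to 1.59).

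In Y_iTBS 3, the choroid plexus transcript Ttr was at 4.79 (6.91 to 7.08) and the efflux transporter Abcg2 at 2.63 (3.07 to 3.1). In Y_iTBS 1, Grin2d was at 6.86 (7.93 to 8.00) and the ribosomal protein gene Rpl6 at 8.04 (8.52 to 8.6).

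Among sham rats, Y_Sham 2 had Slc35f1 at 5.30 (the others 5.52 to 5.57) and Tac1 at 3.57 (3.91 to 3.96). Y_Sham 3 had Ly96 at 0.28 (0.57 to 0.62), Cd14 at 1.06 (0.65 to 0.71) and Timd2 at -1.28 (-3.81 to -3.66). Y_Sham 4 had C1s at 1.42 (1.94 to 2.04), the progenitor filament gene Nes at -0.14 (0.47 to 0.50) and Grin2d at 7.59 (7.11 to 7.18).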

How the results depend on the processing

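With 4 animals a group the median SE of a probe was 0.183, so that 2 SE come to 0.366, and no difference of any size passed the adjusted threshold with all arrays. Against 0 adjusted calls, 1647 probes at an unadjusted limma p under 0.05 and 1092 without overlap, keeping probes of mean z-score above 0 gave 1085 and 631 of the last 2, from fewer probes tested. Array weights gave 5872 unadjusted calls. An approximation of the selection rule of the study's methods, which are not given in full, gave 42 probes. The young arrays of slide 1 alone, an alternative chosen after seeing the data, gave 2 adjusted calls, Iyd and Slc30a2. Among these 5 arrays 10496 of 32417 probes were without overlap. Smaller groups separate more often by rank alone, so counts without overlap from fewer arrays cannot be set against 1092. Leaving out 1 array gave 0 to 2 adjusted calls (2 without Y_Sham 3), 943 to 4017 unadjusted calls (943 without Y_iTBS 3, 1011 without Y_iTBS 2, 1054 without Y_Sham 2, 4017 without Y_iTBS 1) and 1401 to 6552 without overlap (6552 without Y_iTBS 1), and for the difference between regions 0 to 1 (1 without Y_Sham 1 and 1 without Y_Sham 3). Within slide 7 signs turned for the list medians of oxidative phosphorylation (-0.1672), immediate early (0.0824), synaptic vesicle (-0.0979) and Toll-like receptor genes (0.0542), of ribosomal proteins (-0.2753), the postsynaptic density (-0.2511) and thalamus markers (-0.3853), among others, and for S100b, Grin2d, Tlr3 and Neurod1 (-0.5827, -0.2844, 0.2745 and 0.3377), Cck (-0.0755), Ly96 (0.1437), Iyd (0.2445) and Cox6a2 (-0.2479). Oxidative phosphorylation also turned with the 75th percentile (-0.0092), quantile (-0.0122) and normexp (-0.0029) settings. The cause was not tested. The replicate number as a block gave 2547 unadjusted calls and 0 adjusted. Same-numbered animals deviated together with correlations of 0.207, -0.046, 0.073 and 0.088 across probes, so the numbers were not taken to pair the animals.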

Other observations

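Circadian clock genes were higher for 15 of 18 (median 0.14, or 0.07 within slide 1), and their list mean overlapped between the groups. Npas2, a partner of Bmal1, had 4.25, 3.94, 4.17 and 4.53 in Y_Sham 1 to 4 and 4.53, 4.64, 4.93 and 4.82 in Y_iTBS 1 to 4, a difference of 0.50 (SE 0.21) with slight overlap, and the clock kinase Csnk1e differed by 0.26. Heat shock and chaperone genes were lower for 10 of 14 (median -0.15), also with overlapping list means. Hsph1 was at -0.30, or -0.14 within slide 1, and the cochaperone Bag3 at -0.29, or -0.01 within slide 7. None had an adjusted limma p under 0.05.

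Crhr1, the receptor for corticotropin-releasing hormone, had 0.83, 0.46, 0.38 and 1.17 in Y_Sham 1 to 4 and 1.19, 1.51, 1.88 and 2.15 in Y_iTBS 1 to 4, without overlap, a difference of 0.97 (SE 0.47). The mineralocorticoid receptor Nr3c2 differed by -0.28. Neurogenesis and proliferation genes were lower for 9 of 13 (median -0.19, or -0.08 without Y_Sham 1 and -0.10 with scaling on the 75th percentile), with Nes at -0.40. Neurod1, a factor of granule neurons, was at -0.23 and at 0.34 within slide 7. Ribosomal protein genes were higher for 56 of 75 (median 0.07), but with scaling on the 75th percentile 54 were lower. Within slide 7 all 74 with a value were lower (median -0.28), and Y_iTBS 1 was below every sham rat for 62 of 75, while Y_iTBS 2 was above every sham rat for 64.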
